A study of Mus musculus with 6 samples.

Results

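Serpins are a family of proteins of which most trap proteases: the protease cuts an exposed loop of the serpin, the serpin refolds, and both are locked in a covalent complex that is cleared by receptors. Clade A members are mostly secreted into blood and tissue fluid, clade B members stay inside the cell, and a few members have lost the inhibitory function and serve as hormone carriers or chaperones. Mice carry expanded groups of near-copies where humans have 1 gene, among them the Serpina1, Serpina3, Serpinb1, Serpinb6 and Serpinb9 groups. In the testis, serpins meet the proteases of sperm, of leukocytes and of the plasminogen system.

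The serpin genes were all genes whose symbol on the array is Serpin followed by a clade letter and a number. This rule found 61 genes on 78 probes, of 55681 probes on the array, with 24 genes in clade A, 27 in clade B and 10 in clades C to I. Each gene was read from its probe of highest mean signal. The measurements come from whole testes of male C57BL/6 mice at 5 months of age. The AROM+ group was 3 mice with an aromatase over-expression transgene; aromatase converts androgens to oestrogens, and the WT group was 3 wild-type mice. RNA of 1 testis was hybridised to each one-colour array. The labels give neither the promoter nor the species of the aromatase transgene, and they do not say whether the mice were littermates.

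A level below is the log2 processed signal with the array's 75th percentile set to zero, and a difference is the AROM+ mean minus the WT mean with its limma standard error (SE, 3 arrays per group). Between 76.6% and 80.6% of spots were well above background, and no spot was saturated. Arrays correlated at 0.986 to 0.991 within AROM+, at 0.994 to 0.996 within WT and at 0.949 to 0.979 between the groups, across genes, which are not independent replicates. The WT arrays fill one row of the slide and the AROM+ arrays the other, so group and slide position cannot be told apart. Mouse Cyp19a1, the aromatase gene, averaged −3.21 ± 0.20 in AROM+ and −2.91 ± 0.32 in WT testes (SD, n = 3 each), and its difference of −0.30 was not called (limma adjusted p = 0.206). Its probe may not read the transgene, so it does not check the labels.

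Of the 61 serpin genes, 45 were tested, those whose probe was well above background in every testis of AROM+, of WT or of both; 40 of them were above it on all 6 arrays. Of these 45, 14 rose in AROM+ testes, 7 fell and 24 were not called at a limma adjusted p under 0.05. The 14 that rose are 31.1% of the serpins tested, beside 19.8% of all 18857 genes tested. The 7 that fell are 15.6%, beside 32.7% of all genes. The imbalance was larger among strong changes. A rise of at least 1 on the log2 scale was called for 13 serpins, or 28.9%, beside 6.83% of all genes, and no serpin fell that far, beside 1.33% of all genes. The median difference was 0.36 over the 45 serpins and −0.15 over all genes. Values of the groups did not overlap for 22 serpins, or 48.9%, beside 63.5% of all genes. The count of 7 lower serpins was 3 without WT replicate 1, 4 without WT replicate 3 and 4 without AROM+ replicate 1. Over all genes, 6161 were called lower, 3948 once WT replicate 1 was left out and 3814 once WT replicate 3 was.

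**Figure D1:**
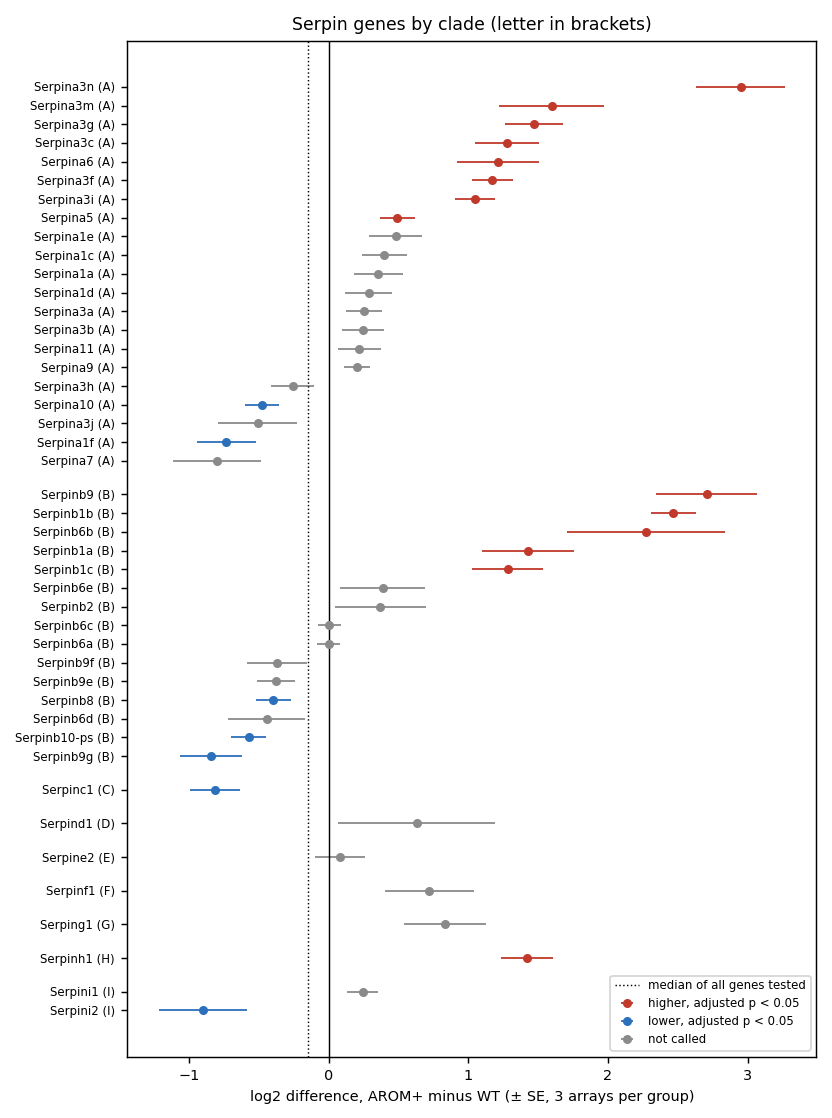
Difference between AROM+ and WT testes for 44 of the 45 serpin genes tested, on a log2 scale, grouped by clade from A at the top to I at the bottom. Points are limma differences with SE bars, red for the 14 genes called higher, blue for the 7 called lower and grey for 23 of the 24 not called; the dotted line is the median of all genes tested, −0.15.

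Whole-testis RNA holds many cell types, and fewer cells of a type cannot be told apart from less RNA per cell. Counts of called markers and list genes, here and below, stand beside 19.8% of all genes called higher and 32.7% called lower. Of 10 macrophage markers 8 were higher and 2 lower in AROM+ testes, with a summed linear signal, in units of the array's 75th percentile, of 43.2 to 58.7 in AROM+ and 27.5 to 32.7 in WT testes. Of 7 fibroblast markers 6 were higher and 1 lower, with sums of 19.2 to 28.1 in AROM+ and 9.86 to 13.5 in WT testes. Of 7 spermatid markers 0 were higher and 4 lower, with sums of 155 to 164 in AROM+ and 179 to 247 in WT testes. The part of these shifts in the serpin differences was not tested.

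Clade A held the largest rise of the family, and it lay in the Serpina3 group of mouse chromosome 12. Of the 11 Serpina3 genes, 10 were tested, 6 rose, none fell at either the adjusted p or an unadjusted limma p under 0.05, and the median difference was 1.11. The group corresponds to human SERPINA3, alpha-1-antichymotrypsin, an acute-phase inhibitor of chymotrypsin-like proteases. Serpina3n, a secreted inhibitor that blocks granzyme B in mouse, is read at chromosome 12, 105651918 to 105651977 (NCBI37/mm9, plus strand), and the first 30 bases of its probe are shown because it had the largest difference of any serpin.
Serpina3n probe, bases 1 to 30: ttggcatgcctggattagatagtgactaac
The level of Serpina3n was 0.25, −1.06 and −0.11 in the 3 AROM+ testes, against −3.39, −3.09 and −3.30 in the 3 WT testes. Every AROM+ testis was far above every WT testis, a difference of 2.95 ± 0.32, or 7.73-fold (limma adjusted p = 0.00245).

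Serpina3g, known as Spi2A, works inside mouse leukocytes as an inhibitor of cysteine cathepsins. Its level was 3.24, 3.26 and 2.70 in AROM+ testes, against 1.37, 1.93 and 1.50 in WT testes. The groups did not overlap, and the difference was 1.47 ± 0.21 (limma adjusted p = 0.00367). Serpina3m had levels of −3.43, −4.96 and −4.69 in AROM+ testes, against −6.05, −5.82 and −6.01 in WT testes. Its rise of 1.60 ± 0.38 (limma adjusted p = 0.0138) had AROM+ replicate 1 well above the other AROM+ testes, and it was 0.96 with normexp background correction. Serpina3c read 1.49, 1.86 and 1.16 in AROM+ testes, against 0.10, 0.61 and −0.03 in WT testes. This was a rise of 1.28 ± 0.23 with no overlap (limma adjusted p = 0.00639).

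The remaining pair of called Serpina3 genes was read by more than 1 probe each, and the probes of each gene rose together. Serpina3f read 2.15, 2.15 and 1.75 in AROM+ testes, against 0.66, 1.00 and 0.87 in WT testes, a difference of 1.17 ± 0.15 (limma adjusted p = 0.00301). That probe is annotated to both Serpina3f and Serpina3h. It is placed at 105492556 on chromosome 12 (NCBI37/mm9), near the probe of Serpina3h at 105491733, so it may read Serpina3h. A second, Serpina3f-only probe, placed at 105458989, gave 1.42 ± 0.38. Serpina3i read −1.26, −1.50 and −1.76 in AROM+ testes, against −2.50, −2.47 and −2.68 in WT testes, a difference of 1.05 ± 0.14 (limma adjusted p = 0.00351). Its second probe gave 1.07 ± 0.21. The other 4 tested members were not called: Serpina3a differed by 0.25, Serpina3b by 0.24, Serpina3h by −0.26 and Serpina3j by −0.51. Serpina3k was not above background on enough arrays to be tested.

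Near-copies within the group did not give the same reading. The probe of Serpina3h and the second probe of Serpina3i match at 51 of the 57 bases over which they overlap, and the stretches below are shown because both fall in the region where they differ. Capitals mark the bases at which the pair differs.
Serpina3h probe, bases 9 to 38: cacaggGgtcaaaTtAaTtctaTgttgtgA
Serpina3i second probe, bases 6 to 35: cacaggAgtcaaaGtTaAtctaCgttgtgG
The Serpina3h probe read 0.01, −0.07 and −0.01 in AROM+ testes, against 0.36, 0.46 and −0.11 in WT testes. The Serpina3i second probe read −2.72, −3.39 and −2.69 in AROM+ testes, against −3.97, −3.82 and −4.23 in WT testes. The AROM+ values thus lay above all WT values for the second Serpina3i probe, while the groups overlapped for this Serpina3h probe. They did not overlap for the probe annotated to both Serpina3f and Serpina3h.

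**Figure D2:**
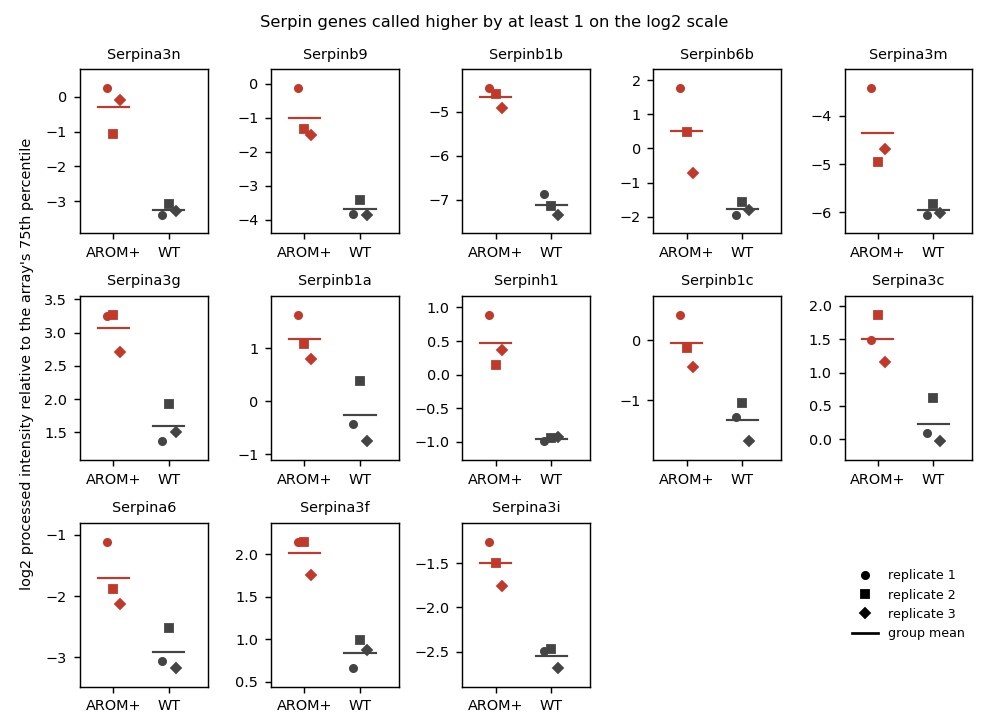
Level of the 13 serpin genes called higher by at least 1 on the log2 scale, one panel per gene with its own vertical axis (log2 processed signal with the array's 75th percentile at zero). Points are single testes, AROM+ at the left and WT at the right of each panel, with symbols for the replicate number, and lines are group means. In every panel all 3 AROM+ points lie above all 3 WT points.

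Start-site sequence was available for 50 of the 61 serpin genes as 59 RefSeq windows (GRCm38.p6, 250 bases before to 50 after a start), of 32851 windows in all. The STAT-binding motif GAS was searched as TTCNNNGAA on both strands, and it occurred in 8.3% of all windows, in 11 of the 59 serpin windows and in 4 of the 13 windows of serpins that rose. Those 13 windows belong to 11 of the 14 genes that rose, with none for Serpina3m, Serpina6 and Serpinb1a. The 4 matches were in 3 genes, Serpina3f, Serpina3g and Serpina3i, since a pair of overlapping Serpina3f windows holds the same site. The windows of Serpina3c and Serpina3n did not hold these letters. The other GAS matches were in Serpina1f, which fell, in Serpina11, Serpinb2 and Serpinb6a, which were not called, and in the untested Serpinb9c. Overlapping windows of Serpina11 and of Serpinb2 likewise hold the same site. The interferon-response motif ISRE was searched as a pair of GAAA with 2 bases between. It occurred in 3.44% of all windows, in 3 of the 59 and in 1 of the 13, that of Serpinb9. The other ISRE matches were in windows of Serpina3a and Serpinb6a, which were not called. The oestrogen-response motif ERE, searched as GGTCA and TGACC with 3 bases between, occurred in 0.07% of all windows and in none of the 59. The AP-1 motif TGANTCA was in 7.81% of all windows and in 11 of the 59, and PU.1, searched as GAGGAAGT, was in 3.2% and in 1 of the 59. Neither was in the 13.

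The 250 bases before the start are shown for the paralogs Serpina3g and Serpina3i, which rose together and carry the same GAS letters, and for Serpinb9, with each motif match in capitals.
Serpina3g, chr12:104235897-104236146, plus strand, GRCm38.p6: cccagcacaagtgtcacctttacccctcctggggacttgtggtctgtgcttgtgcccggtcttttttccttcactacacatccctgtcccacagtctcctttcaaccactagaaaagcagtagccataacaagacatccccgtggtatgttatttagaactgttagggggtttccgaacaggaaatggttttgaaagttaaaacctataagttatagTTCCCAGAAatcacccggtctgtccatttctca
Serpina3i, chr12:104262872-104263121, plus strand, GRCm38.p6: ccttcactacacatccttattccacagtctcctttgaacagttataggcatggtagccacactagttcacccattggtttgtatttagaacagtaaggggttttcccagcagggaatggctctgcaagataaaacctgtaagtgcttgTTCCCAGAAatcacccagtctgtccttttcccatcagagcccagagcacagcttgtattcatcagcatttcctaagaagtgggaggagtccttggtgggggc
Serpinb9, chr13:33004291-33004540, plus strand, GRCm38.p6: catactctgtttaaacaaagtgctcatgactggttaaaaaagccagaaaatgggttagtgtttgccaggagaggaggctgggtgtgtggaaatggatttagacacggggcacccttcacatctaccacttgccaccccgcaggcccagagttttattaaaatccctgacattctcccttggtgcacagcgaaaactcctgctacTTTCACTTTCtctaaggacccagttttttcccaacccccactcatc
The match begins 33 bases before the Serpina3g start and 102 bases before the Serpina3i start, and it sits in a run of 17 bases that the 2 windows share. Such a match describes the letters only and is no evidence of binding.

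Serpina1 genes, the mouse counterparts of alpha-1-antitrypsin, the main plasma inhibitor of neutrophil elastase, did not follow the Serpina3 group. All 5 were tested and none rose, with 2 higher at an unadjusted limma p under 0.05. Serpina1a, Serpina1c, Serpina1d and Serpina1e differed by 0.36, 0.40, 0.28 and 0.48 and were not called, and the groups overlapped for each. Their probes are alike, and those of Serpina1c and Serpina1d are annotated to several of these genes. The probes of Serpina1a and Serpina1c match at 50 bases of their overlap, which is shorter than 60 bases, and may not be separate readings. Serpina1f fell by 0.73 ± 0.21 (limma adjusted p = 0.0266), a call that was lost without WT replicate 3 (−0.57, adjusted p = 0.0789), without AROM+ replicate 1 (−0.75, adjusted p = 0.0562) and without AROM+ replicate 3 (−0.55, adjusted p = 0.0582). With the replicate number as a block its adjusted p was 0.0707. Of the 7 hepatocyte markers, Alb and Apob were not above background and of the 5 tested 1 was higher and 2 lower. Their sums were 0.65 to 0.69 in AROM+ and 0.55 to 0.62 in WT testes, while their median difference was −0.32.

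Of the pair of hormone carriers in clade A, Serpina6 rose and Serpina7 was not called. Serpina6, corticosteroid-binding globulin, a plasma carrier with no inhibitory function, read −1.11, −1.88 and −2.12 in AROM+ testes, against −3.05, −2.53 and −3.17 in WT testes. Its groups did not overlap, with a rise of 1.21 ± 0.29 (limma adjusted p = 0.0148). A second Serpina6 probe differed by 1.58 ± 0.97 and was not called. The Serpina6 adjusted p was 0.0506 without WT replicate 1, 0.0532 without WT replicate 3 and 0.104 for the mean of both probes. Serpina7, thyroxine-binding globulin, on chromosome X, differed by −0.80 and was not called (limma adjusted p = 0.0693).

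Serpina5, protein C inhibitor, an inhibitor of coagulation and sperm proteases without which male mice are infertile, was the serpin of highest mean signal in clade A. It read 3.37, 3.53 and 3.43 in AROM+ testes, against 2.86, 3.20 and 2.80 in WT testes, a rise of 0.49 ± 0.13 with no overlap (limma adjusted p = 0.0178). The Serpina5 adjusted p was 0.0646 without WT replicate 1, 0.0622 without WT replicate 3, 0.0523 without AROM+ replicate 2 and 0.0902 with scaling to the spike-in controls. Serpina10, the protein Z-dependent inhibitor of factor Xa, fell by 0.48 ± 0.12 (limma adjusted p = 0.0184). Its adjusted p was 0.0669 without WT replicate 1, 0.0633 without WT replicate 3 and 0.0705 with spike-in scaling. Serpina9 and Serpina11 differed by 0.20 and 0.22 and were not called, and Serpina12 and the pseudogene Serpina4-ps1 were not tested. A second Serpina11 probe differed the other way, by −0.28 ± 0.11, and was not called either.

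Clade B lies on chromosomes 13 and 1. On chromosome 13, 12 of 15 genes were tested, of which 5 rose by more than 1 and 1 fell. On chromosome 1, only 3 of 12 were tested, of which 0 rose, also at an unadjusted limma p under 0.05, and 2 fell. The untested chromosome 1 genes were Serpinb3a to Serpinb3d, Serpinb5, Serpinb7, Serpinb11, Serpinb12 and Serpinb13, several of which are known from skin and other stratified epithelia. Along chromosome 13 the genes that rose lay side by side: in order Serpinb1a, Serpinb1c, Serpinb6b, Serpinb9 and, past the untested Serpinb9b, Serpinb1b. The 7 tested genes further along, from Serpinb9e to Serpinb6a, included none that rose. This order was noticed in the values and was not tested.

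**Figure D3:**
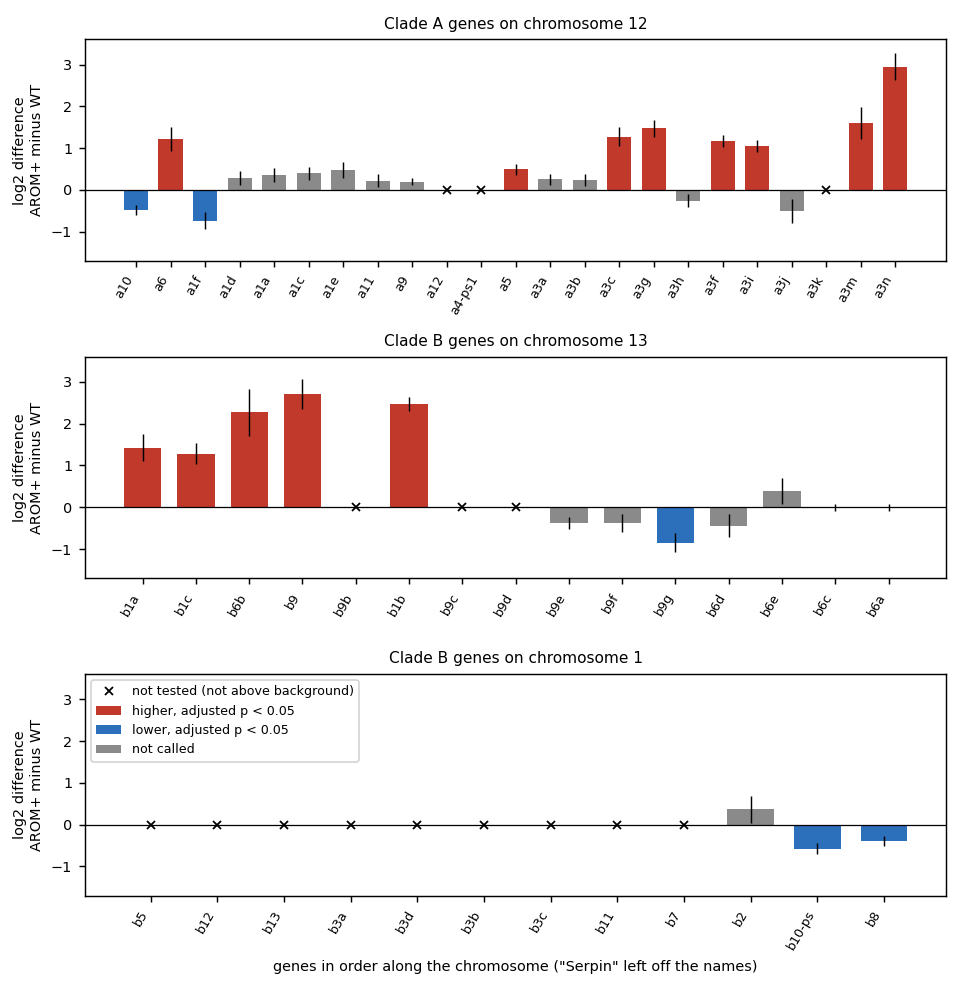
Difference between AROM+ and WT testes for clade A genes on chromosome 12 (top), clade B genes on chromosome 13 (middle) and clade B genes on chromosome 1 (bottom). Genes on the horizontal axis are in chromosome order of the probe read for each, so Serpina3f is drawn after Serpina3g and Serpina3h. Bars are log2 differences with SE, red for called higher, blue for called lower and grey for not called, and crosses mark genes not tested; the tallest bars are Serpina3n at 2.95 and Serpinb9 at 2.71.

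Serpinb9, which protects cells from granzyme B by trapping it in the cytosol, rose most in clade B. It is read at chromosome 13, 33109767 to 33109824 (NCBI37/mm9, plus strand). Its level was −0.13, −1.33 and −1.52 in AROM+ testes, against −3.84, −3.40 and −3.85 in WT testes, a difference of 2.71 ± 0.36, or 6.53-fold, with no overlap (limma adjusted p = 0.00339). Serpinb6b, which inhibits granzyme A in mouse, read 1.76, 0.49 and −0.72 in AROM+ testes, against −1.94, −1.56 and −1.80 in WT testes. The AROM+ testes spread widely but stayed above WT, with a difference of 2.27 ± 0.57 (limma adjusted p = 0.0165). The Serpinb6b adjusted p was 0.0528 without WT replicate 1 (difference 2.19) and 0.0519 without WT replicate 3 (2.26).

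All 3 Serpinb1 genes rose. They correspond to human SERPINB1, which guards the cytosol of leukocytes against neutrophil elastase and cathepsin G. Serpinb1a read 1.63, 1.07 and 0.79 in AROM+ testes, against −0.42, 0.38 and −0.75 in WT testes, a difference of 1.43 ± 0.33 with no overlap (limma adjusted p = 0.0132). Serpinb1c read 0.42, −0.13 and −0.44 in AROM+ testes, against −1.28, −1.04 and −1.68 in WT testes, a difference of 1.28 ± 0.25 (limma adjusted p = 0.00822). Serpinb1b was well above background on all 3 AROM+ arrays and on no WT array. Its measured level was −4.46, −4.60 and −4.91 in AROM+ testes, against −6.88, −7.15 and −7.34 in WT testes (limma adjusted p = 0.00108). In the processed signal it was at least 4.99-fold higher in AROM+ testes. For this bound each WT array counted at its dimmest detected probe, or at the Serpinb1b signal where that was higher. The fitted Serpinb1b difference was 2.47. With normexp background correction it was 1.22, which is smaller than the bound, so the bound does not hold under both background corrections.

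The other Serpinb6 and Serpinb9 genes did not rise. Serpinb6a, counterpart of the human cathepsin G inhibitor SERPINB6, read 2.94, 3.0 and 2.86 in AROM+ testes, against 2.89, 2.91 and 3.01 in WT testes. Serpinb6c read 2.68, 2.74 and 2.61 in AROM+ testes, against 2.64, 2.66 and 2.73 in WT testes. The pair moved together from testis to testis and differed by −0.00 ± 0.08 and 0.00 ± 0.08 between the groups. Their probes match at 55 of 59 overlapping bases and may read both transcripts. Stretches of both are shown for that likeness, with the differing bases in capitals.
Serpinb6a probe, bases 20 to 49: tgcaatgGcaATtatgaaataaagggcttT
Serpinb6c probe, bases 21 to 50: tgcaatgAcaGCtatgaaataaagggcttA
Serpinb6d differed by −0.44 and Serpinb6e by 0.39, and neither was called.

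Serpinb9g was well above background on all 3 WT arrays and on no AROM+ array. Its measured level was −6.84, −6.82 and −7.55 in AROM+ testes, against −6.13, −6.46 and −6.08 in WT testes (limma adjusted p = 0.0194). By the same kind of bound in the processed signal, it was at least 1.46-fold lower in AROM+ testes. The limma adjusted p was 0.0624 without WT replicate 1, 0.0663 without WT replicate 3 and 0.0547 with quantile normalization. The fitted difference of −0.85 was −0.35 with normexp, a fall smaller than the bound. Its probe matches that of Serpinb9f at 52 of 59 bases, shown with the differences in capitals.
Serpinb9f probe, bases 29 to 58: atttctatctgttttcaatatAtTtaCAtA
Serpinb9g probe, bases 28 to 57: atttctatctgttttcaatatGtAtaAGtG
Serpinb9f and Serpinb9e differed by −0.37 and −0.38 and were not called. Serpinb9b, Serpinb9c and Serpinb9d were not tested.

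On chromosome 1, Serpinb2, the plasminogen activator inhibitor PAI-2, differed by 0.37 and was not called. Serpinb10-ps, listed by RefSeq as Serpinb10, fell by 0.57 ± 0.12 (limma adjusted p = 0.0107), or by 0.30 with normexp. Serpinb8, known in human as an inhibitor of furin, had the highest mean signal in clade B. It read 3.99, 3.91 and 4.16 in AROM+ testes, against 4.40, 4.62 and 4.24 in WT testes, and fell by 0.40 ± 0.13 (limma adjusted p = 0.0366). Its probe is largely a TG repeat, with 19 TG dinucleotides in 60 bases and at most 9 in any other serpin probe, so it may read other transcripts with such repeats. Capitals mark the runs of TG.
Serpinb8 probe, bases 31 to 60: aTGTGTGTGTGTGTGcctcTGTGTGTGTGT
The Serpinb8 call was lost in 8 of 19 other settings. Its difference was −0.17 with quantile normalization (adjusted p = 0.205), and its adjusted p was 0.0893 without WT replicate 1, 0.0877 without WT replicate 2, 0.0832 without AROM+ replicate 1 and 0.101 without AROM+ replicate 2.

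Leukocyte and cysteine proteases, only some of which are matched here to a clade B or Serpina3 inhibitor, were set beside these serpins. Of 20 leukocyte protease genes, perforin included, 10 were tested and 2 of these fell, beside 32.7% of all genes. None rose, with 1 higher at an unadjusted limma p under 0.05, with a median difference of −0.24. Gzme fell by 0.59 and Gzmk by 0.32. Gzmb, the granzyme B target of Serpinb9 and Serpina3n, was above background on 1 AROM+ array and on 3 WT arrays and differed by −0.64 (limma adjusted p = 0.508). Gzma, the granzyme A target of Serpinb6b, differed by 0.70 (limma adjusted p = 0.0722), and Elane, neutrophil elastase, by −0.27 (limma adjusted p = 0.401). Ctsg, cathepsin G, was not above background. Of 7 T and NK cell markers tested 1 was higher and 2 lower, with sums of 2.22 to 4.02 in AROM+ and 2.48 to 2.87 in WT testes and Klrb1c not above background. Of 6 neutrophil markers 2 were higher and 1 lower, with sums of 0.39 to 0.63 in AROM+ and 0.47 to 0.52 in WT testes and Ngp and Ltf not above background. Of 7 cysteine proteases tested, among them the cathepsins that Serpina3g inhibits, 6 rose and 0 fell at the adjusted or the unadjusted limma p, with a median of 1.26. Ctsk rose by 2.71, Ctss by 2.31, Ctsh by 1.73 and Casp8 by 1.26. Ctsl, cathepsin L, differed by 0.06 and was not called (limma adjusted p = 0.670).

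Serpinh1, or HSP47, is a serpin without inhibitory function that folds procollagen in the endoplasmic reticulum, and it was the only member of clades C to I called higher. It is read at chromosome 7, 106493971 to 106494030 (NCBI37/mm9, minus strand). Its level was 0.89, 0.14 and 0.37 in AROM+ testes, against −0.99, −0.95 and −0.93 in WT testes, a difference of 1.42 ± 0.19 with no overlap (limma adjusted p = 0.00331). The WT testes were nearly identical. Of 19 collagen chains and collagen-modifying enzymes tested, 15 rose and 1 fell, with a median of 1.00, or 0.99 with Col5a2, which was above background in AROM+ testes only, at its bound. Plod2, a collagen lysyl hydroxylase, rose by 3.07, Col3a1 by 1.98, Col1a1 by 1.76 and Col6a1 by 1.54, and P3h2, a prolyl hydroxylase, fell by 0.77. The fibroblast markers given above, which include Col1a1 and Col3a1, moved with them.

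Serping1, C1 inhibitor, which blocks the first proteases of the complement cascade, lay at the edge of the threshold. Its brighter probe read 1.39, 0.98 and 2.09 in AROM+ testes, against 0.55, 0.99 and 0.42 in WT testes. WT replicate 2 overlapped the AROM+ values, and the difference of 0.83 ± 0.30 was not called (limma adjusted p = 0.0513). The second probe gave 1.03 ± 0.31, with an adjusted p of 0.0359 over probes in limma. Without AROM+ replicate 2 the brighter probe passed (1.09, adjusted p = 0.0234), as it did without WT replicate 2 (1.00, adjusted p = 0.0496). Of 10 complement genes of the C1 complex and the lectin pathway, 7 rose and 0 fell at the adjusted or the unadjusted limma p, with a median of 1.38. C1qc rose by 2.16, C1qb by 1.94, C1s1 by 1.79 and C1qa by 1.77. C1r and C1s are the targets of C1 inhibitor, while the C1q chains are the recognition part and are macrophage products.

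Serpine2, protease nexin-1, an inhibitor of urokinase, plasmin and thrombin, was not called. It read −3.55, −3.58 and −3.02 in AROM+ testes, against −3.60, −3.24 and −3.54 in WT testes. The groups overlapped, with a difference of 0.08 ± 0.18 (limma adjusted p = 0.727). Serpinf2, the plasmin inhibitor alpha-2-antiplasmin, was not tested. Of 11 genes of plasminogen activation tested, 9 rose and 0 fell at the adjusted or the unadjusted limma p, with a median of 0.67. Plg, plasminogen itself, differed by 0.01 and Hpn, the protease hepsin, by 0.13, and neither was called. Plau, urokinase, rose by 4.24, against a dim WT signal that was well above background on only 2 of the 3 WT arrays, so the size of its rise is uncertain. S100a10 rose by 1.32 and Lrp1, which takes up serpin complexes, by 0.99. Plaur, the urokinase receptor, was well above background on all AROM+ arrays and on no WT array (limma adjusted p = 0.00151). By the same kind of bound as for Serpinb1b, in the processed signal, Plaur was at least 21.1-fold higher in AROM+ testes. Its value with normexp background correction is not given here. Of 8 uptake and sorting receptors, among them Lrp1, 4 rose and 1 fell, with a median of 0.49. Stab1 rose by 2.36 and Vldlr by 1.68, and Sort1 fell by 0.48.

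**Figure D4:**
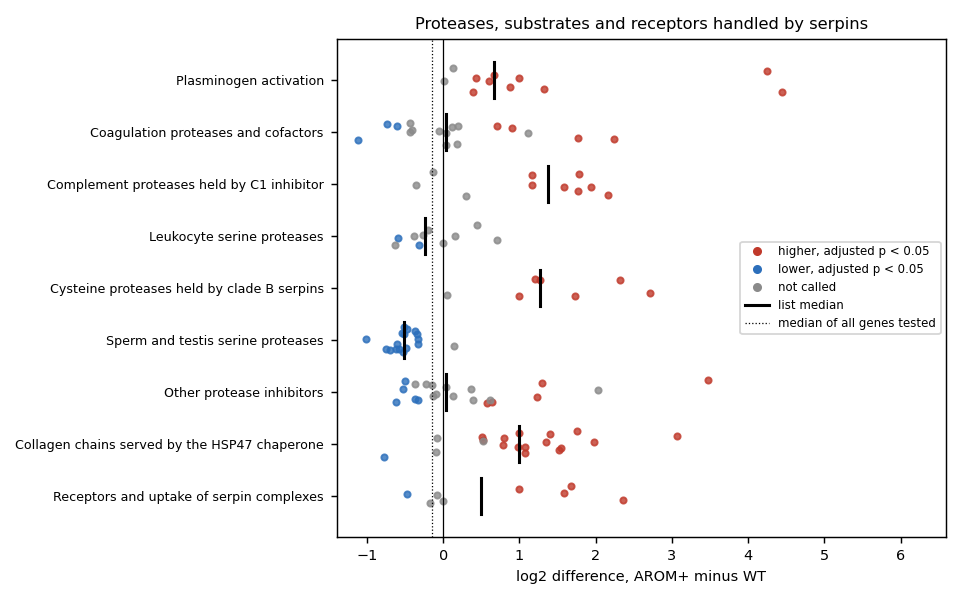
Difference between AROM+ and WT testes (log2) for genes of 9 lists, one list per row. The lists hold proteases and their cofactors, complement and collagen genes, receptors and other protease inhibitors. Points are genes, red for called higher, blue for called lower and grey for not called, short black bars are list medians and the dotted line is the median of all genes tested; complement has the highest median, 1.38, and sperm and testis serine proteases the lowest, −0.51.

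Of clades C and D, 1 gene fell and 1 was not called; both are heparin-dependent inhibitors of thrombin. Serpinc1, antithrombin, read −5.28, −4.92 and −4.68 in AROM+ testes, against −4.26, −4.25 and −3.91 in WT testes, a fall of 0.82 ± 0.18 with no overlap (limma adjusted p = 0.0109). Serpind1, heparin cofactor II, read −6.62, −5.71 and −4.19 in AROM+ testes, against −6.35, −5.89 and −6.16 in WT testes. Only AROM+ replicate 3 stood clear, and the difference of 0.63 ± 0.56 was not called (limma adjusted p = 0.373). Of 17 coagulation proteases and cofactors tested, 4 rose and 3 fell, beside 19.8% and 32.7% of all genes, with a median of 0.04. Procr, the protein C receptor, rose by 2.24, Tfpi, the tissue factor pathway inhibitor, by 1.77 and F3, tissue factor, by 0.91, and F5 fell by 1.12. Of 7 endothelial markers 6 were higher and 1 lower, with sums of 2.47 to 3.26 in AROM+ and 2.20 to 2.50 in WT testes and a median difference of 1.44; their part in these differences was not tested.

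Serpinf1, or PEDF, a secreted anti-angiogenic serpin without inhibitory function, read 0.94, 0.29 and 1.30 in AROM+ testes, against 0.17, 0.57 and −0.36 in WT testes. The groups overlapped, and neither this probe (0.72 ± 0.32, limma adjusted p = 0.0984) nor the second (0.23) was called. Serpini1, neuroserpin, which inhibits tissue plasminogen activator in the nervous system, read −1.07, −0.94 and −0.80 in AROM+ testes, against −1.18, −1.05 and −1.31 in WT testes. Its difference of 0.24 ± 0.11 was not called (limma adjusted p = 0.104). Serpini2 fell by 0.90 ± 0.31 (limma adjusted p = 0.049) with overlapping groups, and its difference was −0.45 with normexp. That call was lost in 11 of 18 other settings, among them without WT replicate 1 (−0.74, adjusted p = 0.14), without WT replicate 3 (−0.75, adjusted p = 0.143), without AROM+ replicate 1 (−0.97, adjusted p = 0.0789) and without AROM+ replicate 3 (−0.66, adjusted p = 0.12).

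Proteases of the sperm acrosome and of spermatids, which Serpina5 can meet, and inhibitors of other families completed the comparison. Of 17 sperm and testis serine proteases and their partners, 16 fell and 0 rose at the adjusted or the unadjusted limma p, with a median of −0.51. Prss43 fell by 1.01, Prss51 by 0.74, Prss42 by 0.70 and Prss41 by 0.62. The spermatid markers given above, which share Acr with this list, moved the same way, with 4 of 7 called lower. Of 21 other protease inhibitors, 5 rose and 5 fell, beside 19.8% and 32.7% of all genes, with a median of 0.04. Timp1, a metalloprotease inhibitor, rose by 3.47, Itih2 by 1.29, Itih5 by 1.23 and Reck by 0.64.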

How the data were processed

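The authors deposited the spot intensities as written by Agilent's scanner software, Feature Extraction. Its version is 10.7.3.1 in the headers of the files, while the submitters' processing notes name 10.10. Processed intensity is background-subtracted, per the file headers. The authors also deposited a table of log2 values, which follows log2 of that signal minus a constant for each array (within 0.3 for 99.5% to 99.7% of spots, slope 1.00; column medians −3.05, −3.09 and −3.02 in AROM+ and −3.12, −3.11 and −3.09 in WT); its genes are not centred, and how its constant was chosen is not given in the sources used here. It served as an alternative.

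Control spots (3671 of 62976 an array) and outlier spots (123 to 192) were left out, and the 75th percentile of each array (3698 to 5452 in processed intensity) was subtracted on the log2 scale. Spots of one probe were averaged. Probes were kept that read well above background in every testis of AROM+, of WT or of both (42637 of 55681), and a gene took its kept probe of highest mean. Other genes took current RefSeq symbols (GRCm38.p6, no coordinates used): 26161 probes by accession, 3752 by symbol and 623 by synonym, while 702 list several genes and 24443 had no match. Serpins took the array's symbol.

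Groups were compared in limma 3.58.1 (R 4.3.3, lmFit and eBayes, two-sided), with Benjamini-Hochberg adjustment over all 18857 genes and a threshold of 0.05. The fit was tested on simulated data. Serpin members, gene lists and tests were chosen with earlier results of these data known. Genes named with all values were those called with a difference of at least 1, those above background in 1 group only and the one of highest mean in each clade; of each list, up to 4 called genes of largest difference are given. Some genes that this rule names are not reported here. Labels name single testes, so p-values measure the spread between them, and the 6 arrays limit the precision. The labels do not say what the replicate number marks. Deviations of same-numbered arrays correlated at 0.02, −0.24 and 0.00. Deviations within such small groups depend on each other, so these values cannot tell whether replicate numbers pair the testes. Alternatives were normexp (offset 50), quantile normalization, scaling to bright probes, spike-ins or the gene median, the deposited log2 table, 2 other filters, the mean of a gene's probes, names from the files alone, the replicate block, a trended eBayes, array weights and leaving out each array.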

Additional observations from a re-analysis of the deposited data

How the results depend on the processing

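No serpin call changed direction under the 19 other settings, and 13 of the 21 called serpins kept their call wherever they were tested: Serpina3c, Serpina3f, Serpina3g, Serpina3i, Serpina3m, Serpina3n, Serpinb1a, Serpinb1b, Serpinb1c, Serpinb9, Serpinb10-ps, Serpinc1 and Serpinh1. The count of higher serpins, 14, was between 11 and 20, and between 11 and 16 with 1 array left out. The count of lower serpins, 7, was 4 with quantile normalization, 4 with spike-in scaling, 4 with the replicate block, and between 3 and 9 with 1 array left out. Over all genes, spike-in scaling called 2332 higher and 3519 lower, against 3734 and 6161, and leaving out 1 array gave 2597 to 3567 higher and 3814 to 5454 lower. Quantile normalization moved that split to 3914 higher and 4283 lower. The replicate block called 14 serpins higher, and 3123 genes higher and 4632 lower over all. Names from the files alone, the naming used for serpins, gave 28925 genes tested, with 4201 called higher and 9073 lower. The cause of these shifts was not tested. Values of 15 uncalled serpins passed the threshold in at least 1 setting, Serping1 in 10 of them, and 16 uncalled values changed sign. Dim members, such as Serpinb1b, Serpinb9g and Serpini2, lie near background, where the size of a difference depends on the background correction.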

Other observations

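TG-rich probes of the array were counted because the Serpinb8 probe is one. Of 42637 probes kept, 72 hold at least 15 TG dinucleotides. A negative difference between AROM+ and WT testes was found for 94.4% of these 72, beside 65.9% of all kept probes, with medians of −0.19 in both sets. In limma over probes, 5 of the 72, or 6.94%, were lower and 1 was higher at an adjusted p under 0.05. Of all 42637 kept probes, 30.4% were lower and 5982 were higher. Probes that share a repeat may read the same transcripts and are not independent. Of 10 epididymis and seminal vesicle markers, 5 were tested, with a median of −0.53. Svs5 rose by 3.17 in AROM+ testes, Svs4 fell by 1.01, Lcn9 by 0.65 and Rnase10 by 0.53, and Crisp1 was not called. Svs2, Lcn5, Lcn8, Pate4 and Defb1 were not above background.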
